A study of Mus musculus with 6 samples.

Results

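Transcripts of 9 tricarboxylic acid (TCA) cycle enzymes were compared between cold-acclimated and non-acclimated T cells. The 9 genes Cs, Idh2, Idh3a, Idh3g, Ogdh, Suclg1, Sucla2, Fh1 and Mdh2 were picked by name from the deposited expression table. All 9 were found among the 41079 genes listed, and all 9 were among the 12227 genes tested, whose TPM averaged at least 1 over the 6 libraries. TPM, a measure of transcript abundance, is a read count divided by gene length and scaled to the same total in every library. D10 cells, a cloned mouse CD4+ helper T cell line described by the labels as of lymph node source, were kept for 24 h at 26°C (cold-acclimated, 3 libraries) or for 24 h at 37°C (non-acclimated, 3 libraries). No genetic change or drug is named for either condition, and the temperature was the one difference stated between them. The labels describe every library as from this 1 cloned line, though marker genes differed between the replicates. The culture medium is given as RPMI 1640 with serum by the labels and as DMEM with IL-2 by the study's methods.

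The TCA cycle runs in the mitochondrial matrix, where it oxidises the acetyl group of acetyl-CoA to carbon dioxide and passes the electrons to NADH and FADH2 for the respiratory chain. Its intermediates also leave the cycle for the synthesis of lipids, aspartate and haem, and activated T cells refill it from glutamine. Several of its steps are run by complexes of different subunits, such as isocitrate dehydrogenase 3, the 2-oxoglutarate dehydrogenase complex and succinyl-CoA ligase, so the balance between subunit transcripts can be followed within a single library.

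The libraries held 16899628 to 31290854 reads, as recovered from the step size of the TPM values. Between 60 reads (Idh2) and 18674 reads (Mdh2) stood behind each member's value in a library. T cell markers were present, with 8 of 8 at a mean TPM of at least 1 and a summed level of 3069 to 4792 TPM at 37°C and 3544 to 4544 TPM at 26°C. Replicates 2 and 3 each stood apart in both conditions. Cd4, the co-receptor that defines helper T cells, was at 1.09, 0.035 and 310 TPM in replicates 1, 2 and 3 at 37°C and at 1.30, 0.352 and 328 TPM at 26°C, so it was nearly absent from replicates 1 and 2. Trac, a T cell receptor constant region gene, was at 15.0 and 12.8 TPM in replicate 2 and at 129 to 207 TPM in the other libraries, and the CD3 chain gene Cd3d was at 64.3 and 78.6 TPM in replicate 2 and at 240 to 332 TPM in the others. B cell markers reached a mean TPM of 1 for 0 of 5 genes, with a summed level of at most 1.11 TPM. Of the macrophage and monocyte markers, 1 of 5 (Lyz2, up to 14.8 TPM) reached that level, and the summed level was 0 to 11.6 TPM at 37°C and 0.642 to 14.9 TPM at 26°C, with Cd14 at 0. For the erythroid markers it was 1 of 4 (Hba-a1, 60.8 to 485 TPM), the summed level was 79.9 to 485 TPM at 37°C and 61.3 to 474 TPM at 26°C, and Hbb-bs was at 0. Lyz2 and Hba-a1 were both highest in replicate 3. The part these differences between replicates play in the results was not tested, and the fits are also given without replicate 3 or without replicate 2.

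The 9 genes lie on different chromosomes of GRCm39. Cs (ENSMUSG00000005683), citrate synthase, spans chromosome 10 from 128173596 to 128198351 on the plus strand. The isocitrate dehydrogenase genes are Idh2 (ENSMUSG00000030541; chromosome 7, 79744594 to 79768356, minus), Idh3a (ENSMUSG00000032279; chromosome 9, 54493795 to 54511946, plus) and Idh3g (ENSMUSG00000002010; chromosome X, 72822569 to 72830471, minus). Ogdh (ENSMUSG00000020456), the first subunit of the 2-oxoglutarate dehydrogenase complex, spans chromosome 11 from 6241597 to 6309094 on the plus strand. The succinyl-CoA ligase genes are Suclg1 (ENSMUSG00000052738; chromosome 6, 73225488 to 73253890, plus) and Sucla2 (ENSMUSG00000022110; chromosome 14, 73790226 to 73833584, plus). Fh1 (ENSMUSG00000026526), fumarate hydratase, lies on chromosome 1 from 175428944 to 175453201 on the minus strand, and Mdh2 (ENSMUSG00000019179), mitochondrial malate dehydrogenase, on chromosome 5 from 135807503 to 135819240 on the plus strand.

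Promoter sequence is shown for Ogdh, the member with the largest change, for Suclg1, the one member whose cold-acclimated values all lay above the non-acclimated ones, and for Idh3g, a member whose values all lay below them. Each line gives the 120 bases before the RefSeq start of the gene, 5′ to 3′ on the gene's strand, at chr11:6241477-6241596 (plus), chr6:73225368-73225487 (plus) and chrX:72830504-72830623 (minus) of GRCm39, found there by an exact match. The RefSeq windows themselves are from a table for GRCm38.p6. For Idh3g the RefSeq start used lies upstream of the gene end at 72830471 given above, and distances are counted from the RefSeq start. Capitals mark letters that match 1 of 6 motifs.
Ogdh: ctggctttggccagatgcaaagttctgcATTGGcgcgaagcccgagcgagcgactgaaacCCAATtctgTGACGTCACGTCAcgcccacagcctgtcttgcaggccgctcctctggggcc
Suclg1: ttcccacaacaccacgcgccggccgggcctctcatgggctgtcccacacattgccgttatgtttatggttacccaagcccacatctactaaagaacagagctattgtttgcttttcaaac
Idh3g: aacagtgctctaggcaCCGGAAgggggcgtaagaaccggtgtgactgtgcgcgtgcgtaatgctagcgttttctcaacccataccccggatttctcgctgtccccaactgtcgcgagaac

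The Ogdh stretch held a CCAAT box at 92 and at 60 bases before the start and a run of 3 overlapping matches to part of the cyclic AMP response element (CRE) at 51, 49 and 44 bases before it. The CRE matches at 51 and 49 lie on opposite strands of the same letters, TGACGTCA, which read alike on both strands. The Idh3g stretch held an ETS core at 104 bases before the start, and the Suclg1 stretch held none of the 6 motifs. Of the members, 8 had a window of 250 bases before to 50 after the start (Idh3a had none), and motifs were searched on both strands of these windows. The CRE part, searched as ACGTCA, was in 5 of the 8 member windows (Idh3g, Ogdh, Suclg1, Fh1 and Mdh2) and in 7.51% of all 32851 windows of the table. The GC box, searched as GGGCGG, was in 6 of 8 against 35.7% of all windows. The CCAAT box, whose letters are its name, was in 4 of 8 against 37.4%. An ETS core, CCGGAA, was found in 2 of 8 against 14.9%. For the NRF1 half-site, TGCGCA, it was 1 of 8 against 7.76%. An E-box, CACGTG, was in 0 of 8 against 7.15%. The E-box and the CRE part have the letters ACGT in common. These matches describe the letters in the windows and were not read as binding sites.

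To determine how much transcript each step of the cycle had, the levels were first compared within each condition. In non-acclimated cells, mean TPM was highest for Mdh2, followed by Cs, Suclg1, Idh3g, Fh1, Idh3a, Ogdh, Sucla2 and Idh2. Mdh2, the last enzyme of the cycle, held 40.9% to 49.7% of the summed TPM of the 9 genes in every library. The ranges of the 3 libraries did not overlap between Mdh2 and Cs, between Idh3a and Ogdh, between Ogdh and Sucla2, or between Sucla2 and Idh2. The ranges of neighbours from Cs to Idh3a overlapped, although Cs was above Suclg1 in 3 of 3 non-acclimated libraries. In cold-acclimated cells the order was Mdh2, Suclg1, Cs, Idh3a, Idh3g, Fh1, Sucla2, Ogdh and Idh2. There, neighbours did not overlap between Mdh2 and Suclg1, between Fh1 and Sucla2, and between Ogdh and Idh2. Sucla2 and Ogdh thus stood in the opposite order at 26°C and at 37°C, and Sucla2 was above Ogdh in 3 of 3 cold-acclimated libraries although the ranges overlapped. Levels between genes depend on the length by which the counts were divided. For Idh2 the length read from the TPM steps was 5556 bases against 1748 for the canonical GENCODE transcript, and for Fh1 it was 1632 against 5290, while for the other 7 genes it was 0.808 to 1.13 times the canonical length. The low level of Idh2 relative to the others is therefore given for the length used by the authors only.

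To examine which members changed with cold acclimation, log2(TPM + 1) was compared between the conditions with limma over all 12227 tested genes. At a Benjamini-Hochberg adjusted p under 0.05, 1 of the 9 members passed, which was Ogdh, lower at 26°C. Among all tested genes 20.7% passed (17.4% lower and 3.30% higher at 26°C). When the fold change also had to reach 1 in size on the log2 scale, Ogdh still passed, beside 18.6% of all tested genes (16.0% lower). At an unadjusted p under 0.05 it was also 1 member, beside 37.7% of all tested genes. For 4 members the libraries of the 2 conditions did not overlap, with Idh3g, Ogdh and Fh1 lower and Suclg1 higher at 26°C, beside 41.1% of all tested genes (31.4% lower, 9.69% higher). The count of members past the test was thus below the share of all genes, and the count without overlap was near it. In these bulk samples, a lower level from fewer cells that express a gene and one from less RNA per cell cannot be told apart.

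**Figure D1:**
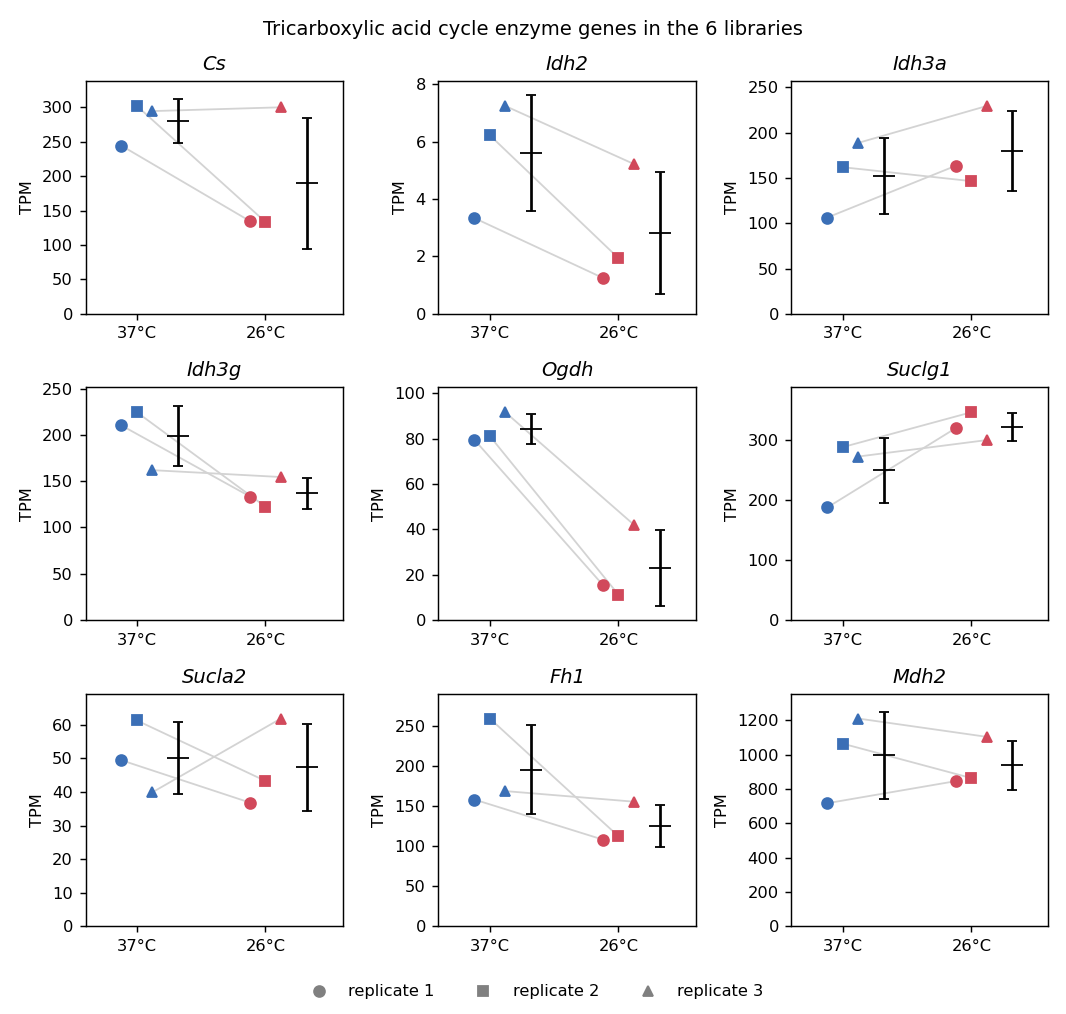
TPM of the 9 TCA cycle genes (vertical axes, each from 0) in the 3 non-acclimated (37°C, blue) and the 3 cold-acclimated (26°C, red) libraries, with marker shape and grey lines for the replicate number and black bars for the mean ± SD (n = 3). Ogdh was at 79.5 to 91.7 TPM at 37°C and at 11.2 to 42.1 TPM at 26°C, whereas the ranges of Cs, Idh2, Idh3a, Sucla2 and Mdh2 overlapped.

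Cs condenses acetyl-CoA with oxaloacetate and is the entry to the cycle. Its level was 244, 302 and 295 TPM in replicates 1, 2 and 3 at 37°C and 135, 133 and 300 TPM at 26°C. Replicates 1 and 2 were lower after cold acclimation and replicate 3 was not, so the conditions overlapped. The mean was 280 ± 31.4 TPM (SD, n = 3) at 37°C and 189 ± 95.9 TPM (SD, n = 3) at 26°C, a log2 fold change of -0.67 (SE 0.35) that did not pass the test in limma (adjusted p = 0.20). Cs passed only in fits that left out cold-acclimated replicate 3. Without cold-acclimated replicate 3 the log2 fold change was -1.05 with an adjusted p of 0.015 in limma, and without both libraries of replicate 3 it was -1.01 with an adjusted p of 0.020.

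Isocitrate dehydrogenase exists in the mitochondrion as the NAD-dependent IDH3, built from alpha, beta and gamma subunits, and as the NADP-dependent IDH2. Idh3a, the catalytic alpha subunit, was at 106, 162 and 189 TPM at 37°C and at 163, 146 and 229 TPM at 26°C. It was higher in replicates 1 and 3 and lower in replicate 2, with overlapping ranges. The means were 152 ± 42.0 and 180 ± 43.8 TPM (SD, n = 3 each), with a log2 fold change of 0.25 (SE 0.30, adjusted p = 0.58 in limma). Idh3g, the regulatory gamma subunit, was at 210, 224 and 162 TPM at 37°C and at 133, 122 and 155 TPM at 26°C. All 3 cold-acclimated libraries were below all 3 non-acclimated ones, though replicate 3 differed little. The means were 199 ± 32.8 and 137 ± 16.3 TPM (SD, n = 3 each), and the log2 fold change of -0.53 (SE 0.23) did not pass in limma (adjusted p = 0.13). Without replicate 3, Idh3g had a log2 fold change of -0.76 and passed (adjusted p = 0.038 in limma). The beta subunit Idh3b had 212, 189 and 227 TPM at 37°C and 169, 89.2 and 202 TPM at 26°C (log2 fold change -0.52, SE 0.33, adjusted p = 0.28 in limma).

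Idh2, which makes NADPH in the matrix, was the least abundant member, at 3.33, 6.22 and 7.24 TPM at 37°C and 1.25, 1.94 and 5.22 TPM at 26°C. Each cold-acclimated library was below the non-acclimated library of the same number, while the ranges overlapped. The means were 5.60 ± 2.03 and 2.80 ± 2.12 TPM (SD, n = 3 each), with a log2 fold change of -0.88 (SE 0.45, adjusted p = 0.20 in limma). Because the replicate numbers pair the libraries, the replicate was also added to the fit as a block. In this blocked fit Idh2 passed, with an SE of 0.28 and an adjusted p of 0.047 in limma. Under the block with median-of-ratios scaling its log2 fold change was -0.57 with an adjusted p of 0.13, so the blocked call for Idh2 was lost with this scaling. Without the block, it passed without cold-acclimated replicate 3, at a log2 fold change of -1.31 and an adjusted p of 0.044, but not without both libraries of replicate 3 (-1.12, adjusted p = 0.059). A noncoding gene on the opposite strand, Gm53380, shares 3564 bases with Idh2 and was at 0.102 to 2.96 TPM.

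Ogdh showed the largest change of the 9 genes. It encodes the decarboxylating first subunit (E1) of the 2-oxoglutarate dehydrogenase complex, which turns 2-oxoglutarate into succinyl-CoA. Its level was 79.5, 81.2 and 91.7 TPM at 37°C and 15.4, 11.2 and 42.1 TPM at 26°C. All cold-acclimated libraries lay below all non-acclimated ones, and the smallest difference was again in replicate 3. From 84.1 ± 6.61 TPM (SD, n = 3) the mean fell to 22.9 ± 16.7 TPM (SD, n = 3), which is 27.3% of the non-acclimated mean. The log2 fold change was -2.05 (SE 0.45) with an adjusted p of 0.021 in limma, and the replicate pairs differed by -2.29, -2.75 and -1.10 on the log2(TPM + 1) scale.

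Ogdh was lower in all 16 alternative fits, with log2 fold changes from -2.58 to -1.65, and its adjusted p was under 0.05 in 9 of them. With the replicate as a block the adjusted p for Ogdh was 0.0081, and with median-of-ratios scaling 0.035. The call was lost without non-acclimated replicate 1 (adjusted p = 0.068), non-acclimated replicate 2 (0.077), cold-acclimated replicate 1 (0.083) or cold-acclimated replicate 2 (0.068) in limma. In these fits, in turn, 78 higher and 527 lower, 59 and 345, 72 and 450, and 78 and 600 of all tested genes passed. The main fit gave 404 higher and 2123 lower. The Ogdh call held without non-acclimated replicate 3 (0.048) and without cold-acclimated replicate 3 (0.0025). Without both libraries of a number, the adjusted p was 0.21 without replicate 1, 0.21 without replicate 2 and 0.0035 without replicate 3. Without replicate 1 or without replicate 2, 0 of all tested genes passed. An antisense noncoding gene, Gm46270, shares 667 bases with the start of Ogdh and was looked at after its values were seen. It was at 11.7, 18.5 and 14.5 TPM at 37°C and at 3.02, 3.86 and 12.5 TPM at 26°C (log2 fold change -1.29, SE 0.47, adjusted p = 0.088 in limma). The libraries were made strand-specific, but whether reads were then counted by strand is not given in the sources used here, so reads of Gm46270 and of the overlapping end of Ogdh may be mixed.

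Other subunits of the Ogdh complex did not pass the test. Dlst, the E2 subunit that carries the succinyl group, was at 96.2, 130 and 165 TPM at 37°C and at 112, 118 and 183 TPM at 26°C (log2 fold change 0.07, SE 0.30, adjusted p = 0.89 in limma). Dld, the E3 subunit that is also part of the pyruvate dehydrogenase complex, had 114, 161 and 149 TPM at 37°C and 91.6, 106 and 198 TPM at 26°C (log2 fold change -0.17, SE 0.33, adjusted p = 0.75 in limma). Ogdhl, a gene closely related to Ogdh, was at 18.6, 27.8 and 35.3 TPM at 37°C and 7.47, 8.66 and 22.3 TPM at 26°C. Its log2 fold change of -1.14 (SE 0.44) had an adjusted p of 0.099 in limma, and of 0.017 with the replicate as a block.

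Succinyl-CoA ligase joins the shared alpha subunit, Suclg1, to a beta subunit that is specific for ADP (Sucla2) or for GDP (Suclg2). Suclg1 was at 187, 287 and 272 TPM at 37°C and at 319, 345 and 299 TPM at 26°C. It was the only one of the 9 genes with every cold-acclimated library above every non-acclimated one. The means were 249 ± 53.9 and 321 ± 23.2 TPM (SD, n = 3 each), and the log2 fold change of 0.39 (SE 0.24) did not pass in limma (adjusted p = 0.28). Sucla2 was at 49.5, 61.3 and 39.9 TPM at 37°C and at 36.9, 43.3 and 61.9 TPM at 26°C. It was lower in replicates 1 and 2 and higher in replicate 3. The means of Sucla2 were 50.2 ± 10.7 and 47.4 ± 13.0 TPM (SD, n = 3 each; log2 fold change -0.10, SE 0.28, adjusted p = 0.84 in limma), and its sign turned with the scaling. Suclg2, by contrast, fell from 67.5, 91.5 and 57.5 TPM at 37°C to 15.4, 19.4 and 46.1 TPM at 26°C, with no overlap (log2 fold change -1.52, SE 0.42, adjusted p = 0.040 in limma). A noncoding gene on the same strand, Gm38834, shares 5732 bases with Suclg1 and was at 1.07 to 3.74 TPM.

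Fh1 hydrates fumarate to malate. Its level was 158, 259 and 168 TPM at 37°C and 108, 112 and 155 TPM at 26°C. The conditions did not overlap, although cold-acclimated replicate 3 came within 3 TPM of the lowest non-acclimated library. The means were 195 ± 55.5 and 125 ± 26.2 TPM (SD, n = 3 each), with a log2 fold change of -0.62 (SE 0.28, adjusted p = 0.15 in limma). Mdh2 oxidises malate to oxaloacetate and was at 717, 1064 and 1211 TPM at 37°C and 846, 864 and 1104 TPM at 26°C. It was higher in replicate 1 and lower in replicates 2 and 3. For Mdh2 the means of 997 ± 253 and 938 ± 144 TPM (SD, n = 3 each) gave a log2 fold change of -0.07 (SE 0.27, adjusted p = 0.89 in limma), and this sign too turned with the scaling. The cytosolic malate dehydrogenase Mdh1 was at 265, 292 and 216 TPM at 37°C and 181, 179 and 240 TPM at 26°C (log2 fold change -0.37, SE 0.23, adjusted p = 0.30 in limma).

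**Figure D2:**
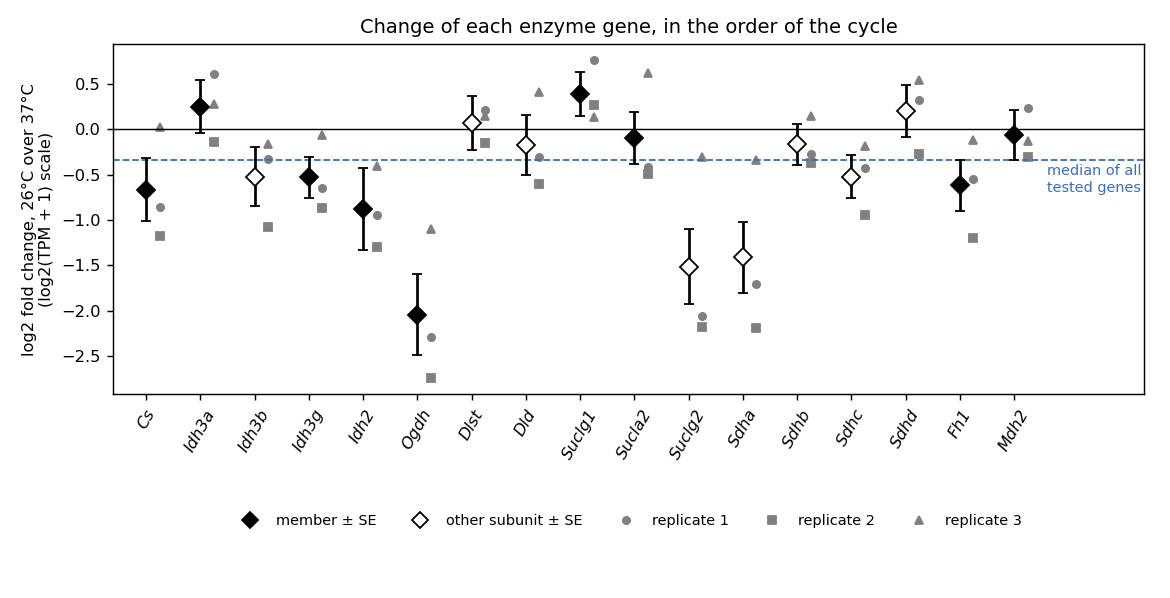
Log2 fold change, 26°C over 37°C on the log2(TPM + 1) scale (vertical axis), of the members (filled diamonds) and of other subunits (open diamonds) in the order of the cycle, with bars for the SE and small grey symbols for each replicate pair; the dashed line is the median of all tested genes (-0.34). Ogdh (-2.05), Suclg2 (-1.52) and Sdha (-1.41) lay lowest, while Dlst (0.07) and Suclg1 (0.39) lay above the dashed line.

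The median log2 fold change of the 9 members was -0.53, beside -0.34 for all tested genes, a difference of -0.19. By replicate number the members' median was -0.54, -0.87 and -0.07, beside -0.32, -0.44 and -0.24 for all tested genes. Members were lower at 26°C in 6, 8 and 5 of 9 genes in replicates 1, 2 and 3. The members therefore lay below the median of all genes in replicates 1 and 2 and above it in replicate 3. Summed over the 9 genes, the level was 2213 ± 396 TPM (SD, n = 3) at 37°C and 1964 ± 336 TPM (SD, n = 3) at 26°C.

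Since TPM sets every library to the same total, the scaling between libraries was also varied. Median-of-ratios scaling, in which each library is divided by its median ratio to the geometric mean of all libraries, moved the median of all tested genes from -0.34 to 0.03 and turned the split of calls from 404 higher and 2123 lower to 1056 higher and 1140 lower. The members' median became -0.12. Under this scaling Ogdh was still the single member past an adjusted p under 0.05 (log2 fold change -1.65, beside 18.0% of all tested genes, 9.32% lower and 8.64% higher), while Sucla2 (0.31) and Mdh2 (0.35) changed sign. Cs (-0.25), Idh2 (-0.57), Idh3g (-0.12) and Fh1 (-0.21) were lower and Idh3a (0.66) and Suclg1 (0.80) higher, and none of these 6 passed in limma. With the replicate block added to this scaling, 3 members passed, beside 33.8% of all tested genes (16.9% in either direction alone): Idh3a (adjusted p = 0.047) and Suclg1 (0.032) higher and Ogdh (0.015) lower. With the block alone, 2 members passed, Ogdh and Idh2, both lower, beside 35.9% of all tested genes (29.0% lower, 6.89% higher). Leaving out replicate 3 gave 3 members, Cs, Idh3g and Ogdh, all lower, beside 35.3% of all tested genes (28.5% lower, 6.85% higher). The other members did not pass without replicate 3, with log2 fold changes of -1.12 for Idh2, 0.24 for Idh3a (adjusted p = 0.54 in limma), 0.52 for Suclg1 (0.20), -0.45 for Sucla2 (0.19), -0.87 for Fh1 (0.065) and -0.03 for Mdh2 (0.95). Leaving out cold-acclimated replicate 3 alone gave 3 members, Cs, Idh2 and Ogdh, beside 29.2% of all tested genes. Without replicate 2, limma called 0 members and 0 of all tested genes, and Ogdh was the 1 member at an unadjusted p under 0.05.

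**Figure D3:**
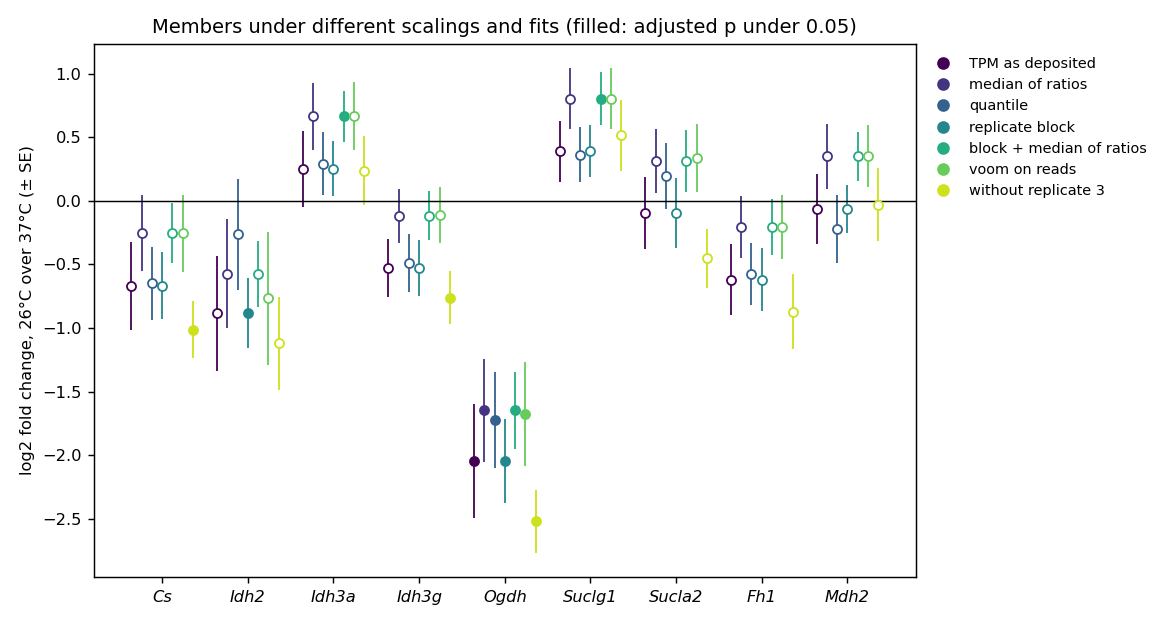
Log2 fold change ± SE (26°C over 37°C, vertical axis) of each of the 9 members under 7 scalings and fits, with filled points for an adjusted p under 0.05. Ogdh was filled and between -2.52 and -1.65 in all 7, whereas the open points of Sucla2 and Mdh2 lay on both sides of 0.

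To compare subunits without any scaling between libraries, the ratio of partner genes was taken within each library. Of 10 pairs, 5 did not overlap between the conditions, beside 41.1% of all tested genes taken singly. The share over other pairs of genes was not taken. Among these pairs, Ogdh, Suclg2 and Idh3g also did not overlap as single genes. With 3 against 3 libraries the smallest p of the two-sided exact permutation test is 0.1, so no pair could reach 0.05. Ratios by library are given as TPM over TPM. The log2 ratios, their differences and their tests use TPM + 1 for both genes. The Ogdh to Dlst ratio (E1 to E2 of 1 complex) was 0.827, 0.622 and 0.556 at 37°C and 0.138, 0.0954 and 0.230 at 26°C. It was lower in every cold-acclimated library, with a log2 difference of -2.12 (SE 0.38, exact permutation p = 0.1). The ratio of the ADP- to the GDP-specific beta subunit of succinyl-CoA ligase was higher at 26°C. Sucla2 to Suclg2 was 0.732, 0.670 and 0.695 at 37°C and 2.39, 2.23 and 1.34 at 26°C, a log2 difference of 1.42 (SE 0.25, exact permutation p = 0.1). In TPM, Suclg2 was the more abundant beta subunit in 3 of 3 non-acclimated libraries and Sucla2 in 3 of 3 cold-acclimated ones. This order holds for the lengths used by the authors only, as the Suclg2 length was not compared with a canonical transcript.

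Within IDH3, the alpha subunit was higher relative to both of the others in every replicate pair, in ratios that did not overlap. By library, Idh3a to Idh3g was 0.506, 0.721 and 1.17 at 37°C and 1.23, 1.20 and 1.48 at 26°C (log2 difference 0.78, SE 0.36, exact permutation p = 0.1). For Idh3a to Idh3b it was 0.502, 0.855 and 0.832 against 0.969, 1.64 and 1.14 (log2 difference 0.77, SE 0.33, exact permutation p = 0.1). Between the NADP- and the NAD-dependent enzymes, Idh2 to Idh3a had a log2 ratio of -4.55 at 37°C and -5.68 at 26°C (difference -1.13, SE 0.29, exact permutation p = 0.1). The other 5 pairs overlapped: Sucla2 to Suclg1 (log2 difference -0.49, exact permutation p = 0.2), Fh1 to Mdh2 (-0.55, 0.2), Mdh2 to Cs (0.60, 0.2), Idh2 to Idh1 (1.56, 0.3) and Mdh2 to Mdh1 (0.30, 0.4). Another 3 pairs were chosen after their values were seen and did not overlap: Ogdh to Dld (log2 difference -1.88, SE 0.30), Suclg1 to Suclg2 (1.91, SE 0.56) and Sdha to Sdhb (-1.25, SE 0.31), each with an exact permutation p of 0.1.

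**Figure D4:**
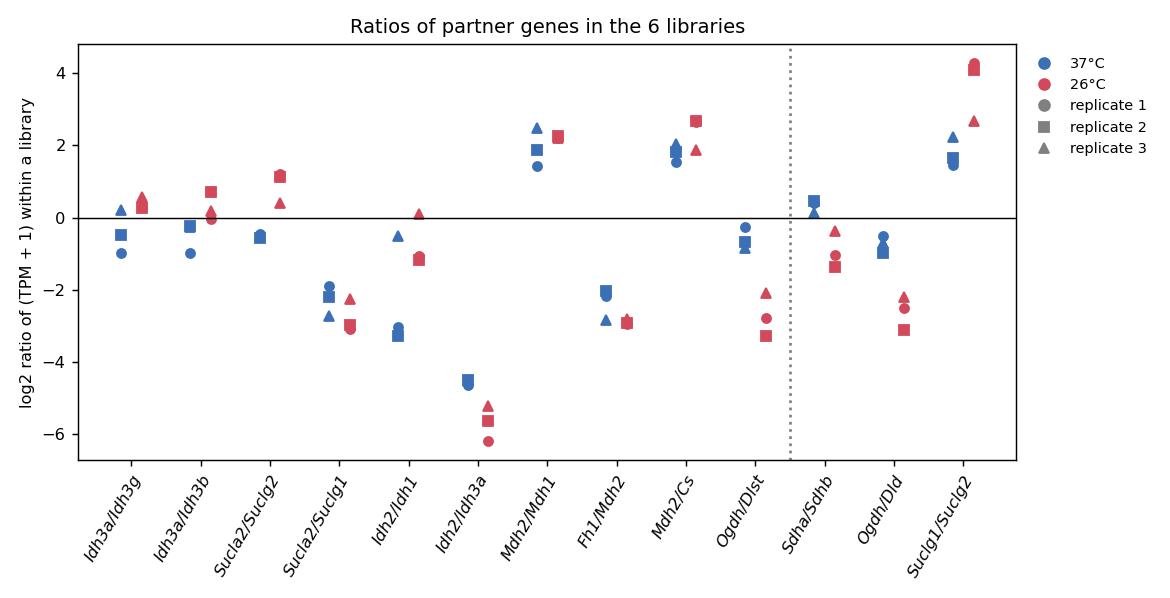
Log2 ratio of (TPM + 1) of partner genes within each library (vertical axis) at 37°C (blue) and 26°C (red), with marker shape for the replicate number and a dotted line before the 3 pairs chosen after their values were seen. Ogdh to Dlst went from a mean of -0.60 to -2.72 and Sucla2 to Suclg2 went from -0.51 to 0.91, neither with overlap.

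The remaining enzymes of the cycle and the factors that assemble them were counted as a list of 21 genes, 20 of them tested. The list also held cytosolic forms, such as Idh1 and Mdh1, and other related genes. In limma 4 passed as lower and 0 as higher, near the shares of all tested genes (17.4% lower and 3.30% higher), and the median log2 fold change was -0.46. Idh1, the cytosolic isocitrate dehydrogenase, was at 34.6, 69.0 and 10.6 TPM at 37°C and at 3.70, 5.61 and 4.78 TPM at 26°C (log2 fold change -2.45, SE 0.60, adjusted p = 0.029 in limma). Sdha, the flavin-bearing catalytic subunit of succinate dehydrogenase, was at 228, 238 and 192 TPM at 37°C and at 69.2, 51.2 and 152 TPM at 26°C (log2 fold change -1.41, SE 0.39, adjusted p = 0.042 in limma). Suclg2 was described above, and the succinate dehydrogenase assembly factor Sdhaf3 fell by 1.09 on the log2 scale (adjusted p = 0.043 in limma). The other succinate dehydrogenase subunits did not pass, with log2 fold changes of -0.17 for the iron-sulfur subunit Sdhb (adjusted p = 0.63 in limma), -0.52 for the membrane anchor Sdhc (0.15) and 0.20 for the membrane anchor Sdhd (0.64). Under median-of-ratios scaling Idh1 alone still passed in this list, as lower, beside 9.32% lower and 8.64% higher among all tested genes. With the replicate as a block 6 genes were lower, Ogdhl and Sdhaf2 being added, beside 29.0% of all tested genes. Without replicate 3 there were 8, beside 28.5%. Without any one of the 4 libraries of replicates 1 and 2, 0 passed in limma, and 5 or 6 were lower at an unadjusted p under 0.05. Of all tested genes, 345 to 600 passed as lower in these fits, and 2769 to 3060 were lower at that unadjusted p. Without non-acclimated replicate 3, 2 were lower (Idh1 and Sdhaf3), beside 1850 of all tested genes. Without cold-acclimated replicate 3 it was 6, beside 2996. With limma-voom on the recovered reads 0 passed, beside 975 higher and 1147 lower of all tested genes. At an unadjusted p under 0.05, 3 of the list were lower and 3 higher, beside 2208 and 2216.

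The steps that bring pyruvate into the cycle were counted as 14 genes, 12 of them tested, of which 0 were higher and 3 lower in limma (median log2 fold change -0.29), beside 3.30% higher and 17.4% lower among all tested genes. These 3 regulate the pyruvate dehydrogenase complex. Pdk1, a kinase that switches the complex off, went from 13.9 ± 2.31 to 6.12 ± 1.59 TPM (log2 fold change -1.08, adjusted p = 0.034). Pdp2, a phosphatase that switches it on, went from 17.7 ± 2.27 to 9.20 ± 0.80 TPM (-0.87, adjusted p = 0.039). Pdpr, a regulatory subunit of pyruvate dehydrogenase phosphatase, went from 23.0 ± 1.93 to 5.44 ± 4.62 TPM (-2.12, adjusted p = 0.021, with SD, n = 3 in each case and adjusted p from limma). Thus Pdk1 and Pdp2, a kinase and a phosphatase that act against each other, were both lower. The other kinase and phosphatase genes tested did not pass. Pdk3 went from 23.3 ± 6.59 to 19.0 ± 2.94 TPM (SD, n = 3, log2 fold change -0.25, adjusted p = 0.57 in limma). Pdp1 went from 5.82 ± 1.57 to 7.44 ± 1.37 TPM (SD, n = 3, log2 fold change 0.32, adjusted p = 0.47 in limma). Subunits of the complex itself did not pass, as in Pdha1 with 299 ± 68.3 and 296 ± 98.4 TPM (SD, n = 3). Under median-of-ratios scaling Pdpr was the one gene of the list that passed. Without any one of the 4 libraries of replicates 1 and 2, 0 passed in limma and 3 were lower at an unadjusted p under 0.05. Of all tested genes, 345 to 600 passed as lower in these fits, and 2769 to 3060 were lower at that unadjusted p. Without non-acclimated replicate 3, Pdk1 and Pdpr passed, beside 1850 of all tested genes as lower.

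Reactions that feed or drain the cycle were counted as 13 genes, 10 of them tested, with 0 higher and 2 lower in limma, near the 3.30% and 17.4% of all tested genes, and a median log2 fold change of 0.04. Pck2, which makes phosphoenolpyruvate from oxaloacetate in mitochondria, was at 77.2, 90.4 and 42.9 TPM at 37°C and at 9.40, 7.50 and 20.9 TPM at 26°C (log2 fold change -2.45, SE 0.43, adjusted p = 0.012 in limma). D2hgdh, which oxidises D-2-hydroxyglutarate to 2-oxoglutarate, was at 12.6, 11.9 and 8.01 TPM at 37°C and at 1.53, 1.08 and 3.20 TPM at 26°C (-2.05, SE 0.35, adjusted p = 0.011 in limma). The mitochondrial malic enzyme Me2 had an adjusted p of 0.074, and of 0.0091 with the replicate as a block (log2 fold change -1.42). Under median-of-ratios scaling the mitochondrial aspartate aminotransferase Got2 was higher (log2 fold change 0.91, adjusted p = 0.030 in limma), and Pck2 and D2hgdh were lower. As deposited, Got2 was at 328 ± 59.4 and 458 ± 42.3 TPM (SD, n = 3), with no overlap. Pck2 and D2hgdh no longer passed in limma without non-acclimated replicate 1, non-acclimated replicate 2 or cold-acclimated replicate 1. There, 2 or 3 genes of the list were lower at an unadjusted p under 0.05. Of all tested genes, 345 to 527 passed as lower in these fits, and 2769 to 3060 were lower at that unadjusted p.

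Factors known to drive the expression of mitochondrial genes were counted as 8 genes, 6 of them tested, with a median log2 fold change of 0.23. Of these 6, 0 passed in limma, beside 20.7% of all tested genes. At an unadjusted p under 0.05 it was also 0, beside 37.7%. Gabpa, an ETS-family factor, was at 48.3 ± 9.89 and 71.7 ± 23.3 TPM (SD, n = 3; log2 fold change 0.53, adjusted p = 0.23 in limma). It passed under median-of-ratios scaling (0.94, adjusted p = 0.045), and also with limma-voom on the recovered reads. Tfam, which packages and transcribes mitochondrial DNA, was at 54.2 ± 9.39 and 51.1 ± 4.36 TPM (SD, n = 3; -0.07, adjusted p = 0.85 in limma). Ppargc1a and Ppargc1b, the PGC-1 coactivators, were at or near 0, with Ppargc1a at 0.0279 TPM in 1 library. The related coactivator Pprc1 was at 17.1, 27.8 and 31.9 TPM at 37°C and at 46.1, 53.9 and 30.8 TPM at 26°C (log2 fold change 0.75, SE 0.33, adjusted p = 0.13 in limma). It passed without replicate 3 (1.15, adjusted p = 0.031) and under the block with median-of-ratios scaling (1.15, adjusted p = 0.040).

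To find genes with a similar pattern, the mean log2(TPM + 1) of the 9 members over the 6 libraries was correlated with that of 7662 protein-coding genes outside the lists that averaged at least 10 TPM. The 5 nearest were Rab5c, a small GTPase of early endosomes (Pearson r = 0.994), Nudt1, which clears oxidised nucleotides (0.993), Mfap3 (0.993), the chromatin protein Hmgb2 (0.993) and adenosine kinase Adk (0.992). Hmgb2, for example, was at 434, 867 and 701 TPM at 37°C and at 184, 169 and 740 TPM at 26°C, low in cold-acclimated replicates 1 and 2 alone. These r values describe 6 libraries of 2 conditions, and they are the highest among many genes searched.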

How the data were processed

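Poly(A)+ RNA of D10 T cells was sequenced from 3 cold-acclimated and 3 non-acclimated strand-specific libraries. Reads were aligned by the authors to GRCm39, counted per gene and tested with DESeq2. The submitters' processing notes name FastQC 0.11.7, Trimmomatic 0.38, HISAT2 2.1.0 and featureCounts 1.6.3. The values used here are TPM as deposited by the authors. For the annotation release, the gene lengths, the strand setting and the conversion of counts to TPM, details were not given in the sources used here. The number of columns left unused was 0.

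The main test was limma 3.58.1, run in R 4.3.3 on log2(TPM + 1). It used a mean-variance trend, no replicate term and the genes that averaged at least 1 TPM. Adjusted p is Benjamini-Hochberg over all genes tested, fold changes are on this scale and understate changes of low genes, and a count test was not used because the unit is TPM. Whole reads were recovered from the TPM steps for 100% of 21195 genes with a TPM above 0 (tolerance 1e-06 reads). They serve to state depth and for limma-voom as an alternative. Across genes, deviations from the condition means correlated at 0.48, 0.50 and 0.51 between same-numbered libraries and at -0.41 to 0.02 between the others. The libraries are therefore paired by number, and a fit with the replicate as a block was run. The labels mention old and new RNA extraction batches without saying which library belongs to which. The study calls the replicates independently prepared.

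Alternatives were a pseudocount of 0.1, no filter, median-of-ratios and quantile scaling, the replicate block with and without that scaling, limma-voom, and leaving out each library and each replicate number. Genes named are the 9 members, the genes of the pathway lists with an adjusted p under 0.05, the partner genes and a fixed set of subunits, and the 5 genes nearest in pattern; others are named as passing under an alternative, as examples of a list or as overlapping a member, after their values were seen. Some genes that the rule or the lists hold are not reported here. The members and lists were chosen with earlier results of these data known. Promoters are from RefSeq. The procedures were tested on simulated data. Python 3.11.15, numpy 2.4.6, pandas 2.3.3, scipy 1.17.1 and matplotlib 3.10.9 were used.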

Additional observations from a re-analysis of the deposited data

How the results depend on the processing

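With 1 member past an adjusted p under 0.05 as reported, the number was 0 without a filter on low values (Ogdh at an adjusted p of 0.056; 2 members at an unadjusted p under 0.05), 2 with the replicate block (paired fit) and 3 with the block and median-of-ratios scaling. It ranged from 0 to 3 when single libraries were left out (0 without non-acclimated replicates 1 or 2 or cold-acclimated replicates 1 or 2, with 1 or 2 members at an unadjusted p under 0.05, and 3 without cold-acclimated replicate 3, beside 29.2% of all tested genes). In the single-library fits with 0 members, 59 to 78 of all tested genes passed as higher and 345 to 600 as lower. The number of members was 0 without replicate 1, 0 without replicate 2 and 3 without replicate 3. With a log2 fold change of at least 1 added, the number was 0 without a filter, 0 to 3 over the single libraries, and 0, 0 and 2 without replicates 1, 2 and 3. Without replicate 1 or replicate 2, limma called 0 of all 12227 genes, with 2 libraries left in each condition, while 400 higher and 2010 lower, and 380 higher and 1849 lower, had an unadjusted p under 0.05. The members' median log2 fold change of -0.53 became -0.12 with median-of-ratios scaling, with or without the block, and -0.11 with limma-voom. Calls for all genes were 307 higher and 1361 lower without a filter, against 404 and 2123. Of the 9 members, 7 kept their direction in all 16 alternatives, the exceptions being Sucla2 (8 lower, 8 higher) and Mdh2 (10 lower, 6 higher). Beyond Idh2 and the calls given above, the block changed no other call among the members in the unscaled fit. Of 130 ratio values under alternatives, 3 moved by more than 1 SD, each without replicate 3. Where libraries were left out, limma shared 1 estimate of the spread between the conditions. Depth limited Idh2 most, with 60 reads in its lowest library.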
